A study of Mus musculus with 6 samples.

Results

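Genes of the synaptic vesicle and its release machinery were followed in the neocortex of mouse embryos labelled as synaptically silent. They were chosen by name, as a list of 48 genes for SNARE proteins, vesicle proteins, active zone scaffolds and endocytosis factors. Of these 48 genes, 31 had a probe on the array, 29 had a value on at least 1 array and 24 had enough values for a test, out of 6041 genes with a named probe and 4414 genes tested. RNA came from the neocortex of null mutant embryos on a C57BL/6 background at embryonic day 14. Each of the 6 mutants was hybridised on its own array of 2 colours with 1 pool of RNA from 6 wild-type embryos of the same background, age and region. The mutant was labelled with cy3 on replicates 1, 2 and 3 and with cy5 on replicates 4, 5 and 6. No other control was hybridised, so each test compares the ratio with 0 and holds no spread between wild-type animals.

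Transmitter release is driven by the SNARE proteins, of which synaptobrevin on the vesicle pairs with syntaxin and SNAP-25 on the plasma membrane to pull the membranes together. Sec1 family proteins bind syntaxin, complexins clamp the assembled complex, and synaptotagmins sense the calcium that triggers fusion. After fusion, NSF and its SNAP adaptors take the complex apart and dynamin and endophilin retrieve the membrane. Much of this machinery is already made in young cortical neurons before synapses mature, where it also serves the growing axon. Active zone scaffolds such as bassoon and RIM hold vesicles near calcium channels, and vesicular transporters fill them with glutamate or GABA.

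Values are log ratios, read as log2 of mutant over pool, so that 1 stands for a 2-fold difference. The mean over all values of an array lay close to 0 on each, from -0.0061 on replicate 5 to 0.0089 on replicate 3. A value of 0 is therefore read as the average ratio of its array, which need not be equal RNA. Values above 0 are read as relatively higher in the mutant, and a shift shared by all genes cannot be seen. The base and the direction of the ratios are not stated in the sources used here. The direction on replicates 1 to 3 is the less settled one, and signs are therefore given as deposited and, where they differ, with these 3 arrays turned. As deposited, Xist, which females express from their inactive X, lay at 0.61, 0.71, 0.31 and 0.24 on replicates 1 to 4 and at -3.17 and -2.58 on replicates 5 and 6. Against a pool of both sexes, values as low as the last pair are those of males with the mutant in the numerator, but the sexes in the pool are not known.

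The arrays were not alike. They held 4396 to 5678 values each, with standard deviations from 0.35 on replicate 2 to 1.09 on replicate 3. Replicates 3 and 4 stood apart from the other arrays. Over all probes they correlated at r = 0.59 with each other and at -0.37 to -0.08 with the other 4 arrays, all of which share the pool. The other 4 arrays did not agree as a set either. Their r was 0.36 between replicates 1 and 2 and 0.21 between replicates 5 and 6, but -0.074 to 0.055 across these pairs. For counts, medians and estimates that replicates 3 and 4 moved most, the value without these 2 arrays is also given. Such values are not taken as the more reliable ones. The values carry no intensity, so no marker gene could be checked for its level in the tissue. As ratios, the 5 fitted genes of a list of general neuronal markers lay between -0.24 and -0.09, with a median of -0.99 on replicate 3 and of -0.30 to 0.16 on the others. The 5 fitted markers of cortical projection neurons lay between -0.18 and -0.02. In bulk tissue, fewer cells of a type and less RNA per cell cannot be told apart.

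No difference between mutant and pool was detected for any of the 24 tested genes of the release machinery, which does not show that they were equal. In limma, 0 of 24 members passed an adjusted p of 0.05, where 0% of all 4958 probes tested did so. At an unadjusted p under 0.05 there were also 0 members, against 1.77% of all probes. Estimates ran from -0.40 for Sh3gl2 to 0.33 for Slc32a1, and the smallest adjusted p of a member was 0.921. Of the 24 members 9 lay above 0 and 15 below, with a median of -0.09, where 43.3% of all probes lay above 0 and the median over all tested genes was -0.03. The split and the sign of the median rest on replicates 3 and 4, without which 13 members lay above 0 and 11 below with a median of 0.024. The median of all tested probes turned as well, to 0.044, so the turn of the median is not particular to the members. The share of all probes above 0 without these arrays is not given. With array weights 12 members lay on each side, with a median of 0.0039, beside 0.026 for all probes. The median size of an estimate, regardless of sign, was 0.15 for members and 0.13 for all probes, so that the sizes were similar.

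The 95% intervals of all 24 members held 0. Of these intervals 22 lay wholly within a 2-fold difference in either direction, or 91.7%, as did 91.4% of those of all probes, so this precision is not particular to the members. The bound assumes base 2, and with a natural logarithm 18 members would lie within it. The other 2, Sh3gl2 and Syn2, reached -1.03 and -1.09 at their lower ends. With replicates 1 to 3 turned, 13 members lay above 0 and 11 below, 16 changed sign and 0 passed. The members' median was then 0.032, beside 0.015 for all probes.

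**Figure D1:**
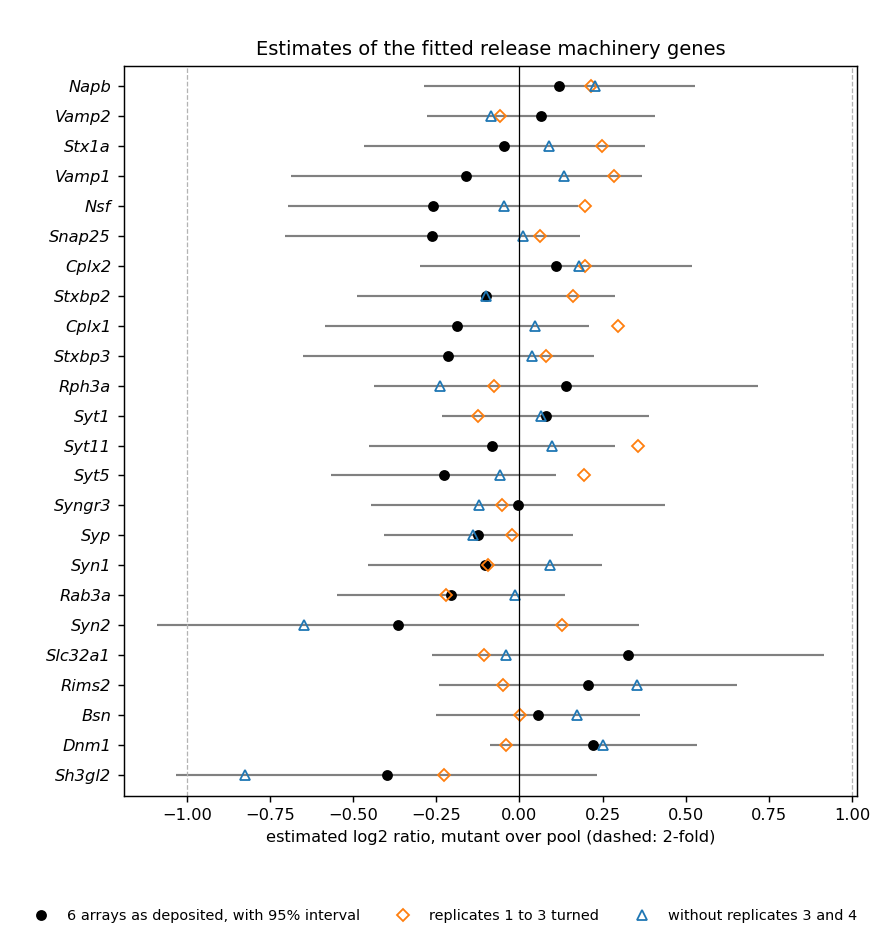
Estimated log2 ratio of mutant over pool for the 24 fitted genes, from top to bottom in the order of the groups in the text. Black points are the limma estimates over 6 arrays with their 95% intervals, orange diamonds the estimates with replicates 1 to 3 turned and blue triangles those without replicates 3 and 4; every black interval crosses 0, and those of Sh3gl2 and Syn2 pass the dashed line of a 2-fold difference at -1.

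SNARE genes and the genes of SNARE disassembly gave 6 fitted members, 2 above 0 and 4 below, with estimates from -0.26 to 0.12. Stx1a, the plasma membrane syntaxin of the release complex, lay at -0.25, -0.34, -0.34, 0.43 and 0.51 on replicates 1, 2, 4, 5 and 6 and had no value on replicate 3. Replicates 5 and 6 were thus above 0 and the other 3 below, which left an estimate of -0.045 ± 0.17 (SE, n = 5). Snap25, its partner on the plasma membrane, lay at -0.021, 0.081, -1.03, -0.58, 0.21 and -0.22 on replicates 1 to 6. Its low values were on replicates 3 and 4, and the estimate of -0.26 ± 0.19 (SE, n = 6; limma adjusted p = 0.921) moved to 0.011 without them.

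The vesicle SNARE Vamp2, a synaptobrevin, lay at -0.15, -0.16, 0.67, 0.050, 0.023 and -0.055. Replicate 3 alone stood clear of 0, and the estimate was 0.064 ± 0.15 (SE, n = 6), or -0.085 without replicates 3 and 4. Its close relative Vamp1 had 2 probes, of which probe 6732 lay at 0.097, 0.027, -1.45, -0.048, 0.46 and -0.045. Probe 3154 of the same gene had a single value, 3.09 on replicate 3, the array where the other probe was at its lowest. On that array 1.5% of the values were higher than 3.09, and the gene has no agreed value there. The fitted probe gave -0.16 ± 0.22 (SE, n = 6), and the mean of both probes turned the estimate to 0.22.

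The ATPase Nsf, which takes spent SNARE complexes apart, lay at -0.071, -0.031, -1.27, -0.11, 0.061 and -0.14. All arrays but replicate 3 were within 0.15 of 0, and the estimate of -0.26 ± 0.18 (SE, n = 6; limma adjusted p = 0.921) became -0.046 without replicates 3 and 4. Napb, the neuronal SNAP adaptor of Nsf, lay at -0.080, -0.11, -0.091, 0.31 and 0.78 on replicates 1, 2, 4, 5 and 6. It gave 0.12 ± 0.17 (SE, n = 5), from the 1 of its 2 probes that had values, and the excess rested on replicate 6, without which it was 0.0080, while without replicate 4 it was 0.23. Napa had no probe.

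**Figure D2:**
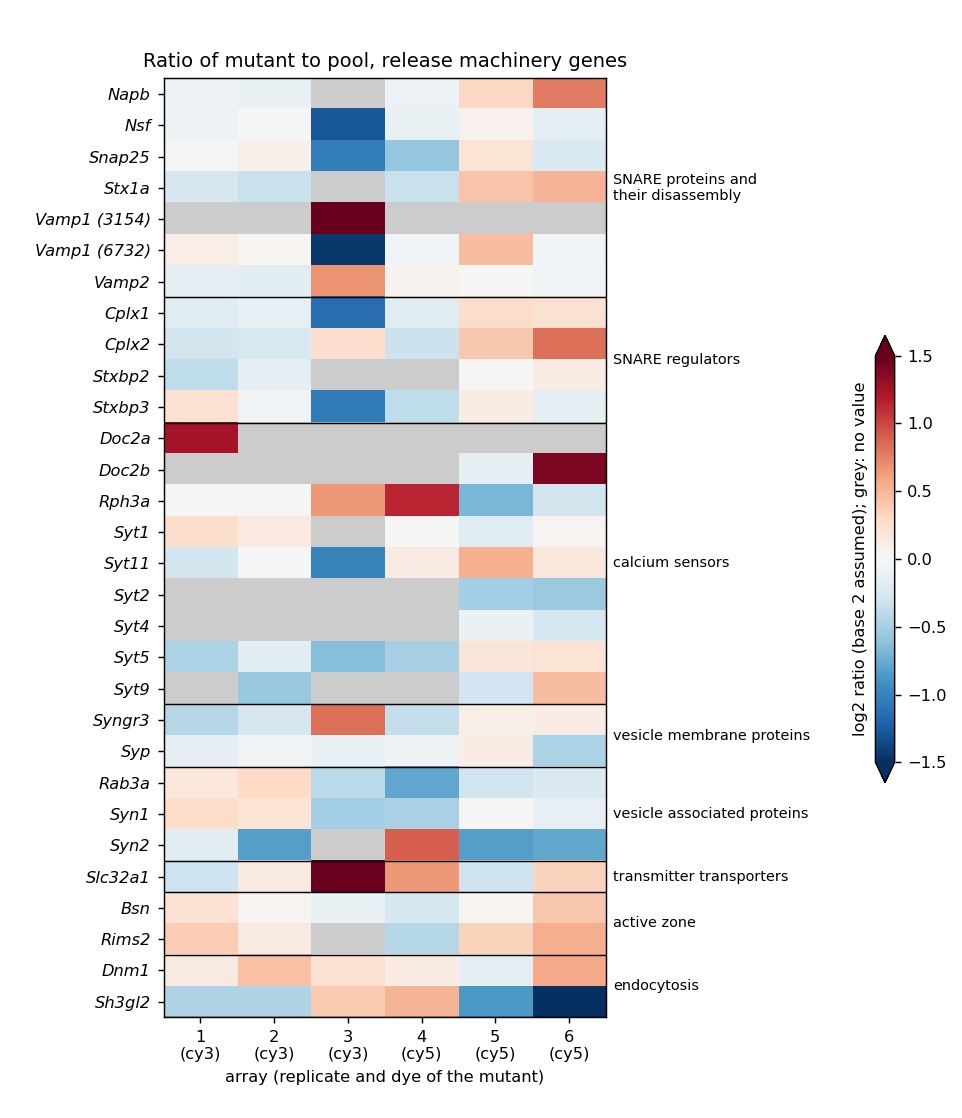
Log2 ratio of mutant over pool on each array for the 29 genes with a value, 1 row per probe, grouped by role. Columns are the arrays with the dye of the mutant. Red is above 0, blue below, grey means no value and the colours end at 1.5 in either direction. The lowest value is that of Sh3gl2 on replicate 6, while Nsf and probe 6732 of Vamp1 are lowest on replicate 3. Stx1a, Cplx2 and Napb are blue on replicates 1, 2 and 4 and red on replicates 5 and 6.

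Regulators of SNARE assembly gave 4 fitted members, 1 above 0 and 3 below, between -0.21 and 0.11. The complexins, small proteins that bind the assembled SNARE complex, did not lie together. Cplx1 lay at -0.19, -0.12, -1.14, -0.18, 0.28 and 0.22, with an estimate of -0.19 ± 0.17 (SE, n = 6), or 0.048 without replicates 3 and 4. Cplx2 lay at -0.27, -0.24, 0.25, -0.32, 0.41 and 0.83, with an estimate of 0.11 ± 0.17 (SE, n = 6). The complexins opposed each other on replicate 3 and had the same sign on the other 5 arrays.

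The Sec1 family members Stxbp2 and Stxbp3 are the relatives that act outside the synapse, in secretion by other cell types. Stxbp2 had values on 4 arrays, replicates 1, 2, 5 and 6, which were -0.38, -0.14, 0.014 and 0.11 and gave an estimate of -0.10 ± 0.15 (SE, n = 4). Stxbp3 lay at 0.23, -0.061, -1.05, -0.38, 0.12 and -0.13, with an estimate of -0.21 ± 0.19 (SE, n = 6), or 0.038 without replicates 3 and 4. The 95% intervals ran from -0.49 to 0.29 for Stxbp2 and from -0.65 to 0.22 for Stxbp3, so neither relative showed a change past its error, and a 2-fold difference lay outside both intervals. Snph and Stxbp5 had no probe.

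Of the synaptotagmins and related calcium-binding proteins all 9 had a value, but only 4 could be fitted, 2 above 0 and 2 below. Syt1, the main calcium sensor of fast release in cortical neurons, lay at 0.26, 0.14, 0.012, -0.19 and 0.042 on replicates 1, 2, 4, 5 and 6. All 5 values were within 0.3 of 0, and its estimate of 0.080 ± 0.13 (SE, n = 5) was among the more precise ones. Syt5 lay at -0.47, -0.16, -0.64, -0.49, 0.18 and 0.21, below 0 on the first 4 arrays and above on replicates 5 and 6. Its estimate was -0.23 ± 0.14 (SE, n = 6; limma adjusted p = 0.921), or -0.059 without replicates 3 and 4.

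Syt11, a synaptotagmin that does not bind calcium, lay at -0.28, -0.033 and -1.01 with the mutant in cy3 and at 0.12, 0.53 and 0.17 with it in cy5, and its estimate was -0.082 ± 0.16 (SE, n = 6). Its values lay below 0 with the mutant in cy3 and above 0 with it in cy5. With replicates 1 to 3 turned, Syt11 thus lay above 0 on all 6 arrays, at 0.36. It was the only member of 18 with complete values to have 1 sign on all arrays under that reading, against 3.91% of all complete probes. As deposited, 0 of these 18 members had 1 sign throughout, against 1.44% of the probes. Rph3a, rabphilin, an effector of Rab3, stood out on replicates 3 and 4 at 0.65 and 1.14. On replicates 1, 2, 5 and 6 it lay at -0.022, 0.021, -0.68 and -0.27, and without replicates 3 and 4 its estimate moved from 0.14 to -0.24.

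The other 5 genes of this group had too few values for a fit. Syt2, the fast calcium sensor best known from hindbrain and spinal cord, had -0.51 and -0.55 on replicates 5 and 6, and Syt4 had -0.097 and -0.26 on the same arrays. Doc2b lay at -0.15 and 1.41 there, on both sides of 0. Syt9 had -0.57, -0.29 and 0.46 on replicates 2, 5 and 6, and Doc2a had 1.23 on replicate 1 alone. No direction can be read from these few values.

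Vesicle membrane proteins were thinly covered, with 2 fitted members of 6, both below 0. Synaptophysin, Syp, an abundant protein of the vesicle membrane, lay at -0.14, -0.058, -0.11, -0.078, 0.11 and -0.47. It was below 0 on 5 of 6 arrays, with an estimate of -0.12 ± 0.12 (SE, n = 6; limma adjusted p = 0.921) and a 95% interval from -0.41 to 0.16. It was also the member with the smallest standard error, and its estimate was -0.14 without replicates 3 and 4. The lowest value was that of replicate 6, without which the estimate was -0.043, and with replicates 1 to 3 turned it was -0.021. Syngr3, a synaptogyrin, ran from -0.43 to 0.82 with an estimate of -0.0047 ± 0.19 (SE, n = 6). Syngr1 had a probe without values, and Sv2a, Sv2b and Sv2c had no probe.

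The 3 fitted genes of proteins that bind to the vesicle surface all lay below 0, but on different arrays. Rab3a, the small GTPase that cycles on and off vesicles, lay at 0.16, 0.30, -0.41, -0.77, -0.29 and -0.21. Replicates 1 and 2 were above 0 and the other 4 below, and the estimate of -0.21 ± 0.15 (SE, n = 6; limma adjusted p = 0.921) moved to -0.013 without replicates 3 and 4. Syn1, a synapsin that tethers vesicles in the reserve pool, ran from -0.51 to 0.28 with an estimate of -0.10 ± 0.15 (SE, n = 6), or 0.092 without these arrays. Its relative Syn2 lay at -0.15, -0.83, 0.90, -0.82 and -0.78 on replicates 1, 2, 4, 5 and 6. Replicate 4 stood alone above 0, the estimate was -0.36 ± 0.30 (SE, n = 5), and without replicates 3 and 4 it was -0.65 ± 0.13 (SE, n = 4; limma adjusted p = 0.300). Syn3 had a probe without values, and Rab3b, Rab3c and Sncb had no probe.

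Among the transmitter transporters only Slc32a1, the vesicular GABA transporter of inhibitory neurons, had a probe. It lay at -0.31, 0.13, 1.48, 0.65, -0.31 and 0.33, highest on replicates 3 and 4. Its estimate of 0.33 ± 0.25 (SE, n = 6; limma adjusted p = 0.921) moved to -0.041 without them. Of 6 fitted marker genes of interneurons and the ganglionic eminence, 1 lay above 0 and 5 below, between -0.37 and 0.14, with medians of 0.35 and -0.41 on replicates 3 and 4. The part of interneuron number in the Slc32a1 values was not tested. The glutamate transporters Slc17a6 and Slc17a7 had no probe.

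At the active zone, Bsn and Rims2 were measured and both lay above 0. Bsn, the scaffold bassoon, ran from -0.27 to 0.41 with an estimate of 0.055 ± 0.13 (SE, n = 6). Rims2, a RIM protein that links vesicles to calcium channels, lay at 0.38, 0.14, -0.42, 0.35 and 0.54 on replicates 1, 2, 4, 5 and 6. Replicate 4 was the only array below 0, and the estimate of 0.21 ± 0.18 (SE, n = 5; limma adjusted p = 0.921) was 0.35 ± 0.081 (SE, n = 4; limma adjusted p = 0.300) without replicates 3 and 4. Pclo, Rims1, Unc13a and Unc13b had no probe.

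The endocytosis genes held both the member with the smallest unadjusted p and the one with the largest difference. Dnm1, the neuronal dynamin that pinches off vesicles, lay at 0.13, 0.43, 0.22, 0.11, -0.13 and 0.57. It was above 0 on 5 of 6 arrays, with an estimate of 0.22 ± 0.13 (SE, n = 6; limma adjusted p = 0.921), but at -0.040 with replicates 1 to 3 turned. Sh3gl2, endophilin A1, which curves membrane and recruits dynamin and synaptojanin, lay at -0.45, -0.46, 0.39, 0.51, -0.87 and -1.53. Replicates 1, 2, 5 and 6 were all below 0, and replicates 3 and 4 both above it. The estimate was -0.40 ± 0.27 (SE, n = 6; limma adjusted p = 0.921), and 5.89% of all probes had a larger one in size. Without replicates 3 and 4 it was -0.83 ± 0.13 (SE, n = 4; limma adjusted p = 0.269), and with the sign of replicates 1 to 3 turned it was -0.23. Without replicate 6 alone, the lowest array, it was -0.17. Amph and Synj1 had no probe.

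**Figure D3:**
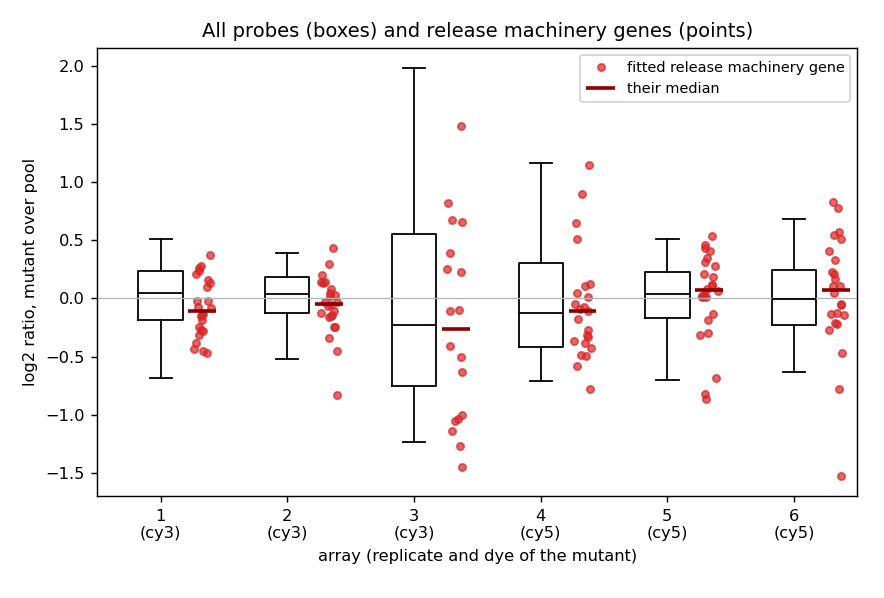
Log2 ratio of mutant over pool by array, with the dye of the mutant under each replicate number. Boxes give the quartiles of all probes with whiskers from the 5th to the 95th percentile, red points are the fitted release machinery genes and dark bars their medians; replicate 3 has the widest box, and the medians of the red points lie between -0.26 and 0.07.

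Array by array, the members' medians were -0.11, -0.046, -0.26, -0.11, 0.073 and 0.074 on replicates 1 to 6, while those of all tested probes were 0.064, 0.046, -0.30, -0.13, 0.048 and -0.018. Members above 0 made up 33.3% and 41.7% on replicates 1 and 2, against 58.4% of all tested probes on each. On replicate 5 they made up 70.8%, against 57.3% of the probes. On replicates 3, 4 and 6 the shares of members were 38.9%, 34.8% and 54.2%, beside 38.7%, 39.5% and 47.6% of the probes. Members above 0 were thus fewer than among all probes on replicates 1 and 2 and more on replicate 5, shares that have no test. The members' SD was 0.84 on replicate 3, where that of all probes was 1.09.

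On replicate 3 the members Snap25, Nsf, Cplx1, Stxbp3 and Syt11 lay between -1.27 and -1.01, while the Vamp1 probes lay at -1.45 and 3.09. The median of all tested probes there was -0.30. It was -0.99 for the neuronal markers, -0.86 for projection neurons and -0.62 for radial glia and progenitors. Lists with few fitted genes gave -0.55 for choroid plexus (2 genes), -0.50 for microglia (4 genes) and -0.31 for erythroid cells (3 genes). The medians were -0.082 for meninges and vessels, 0.35 for the interneuron list and 0.22 for the glial list (2 genes). Of the 18 members with values on replicates 3 and 4, 10 lay below 0 on both, against 52.2% of all probes, and 5 above 0 on both, against 26.5%. These shares are near the background and are no result about the release machinery. The part of cell composition in these low values was not tested.

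**Figure D4:**
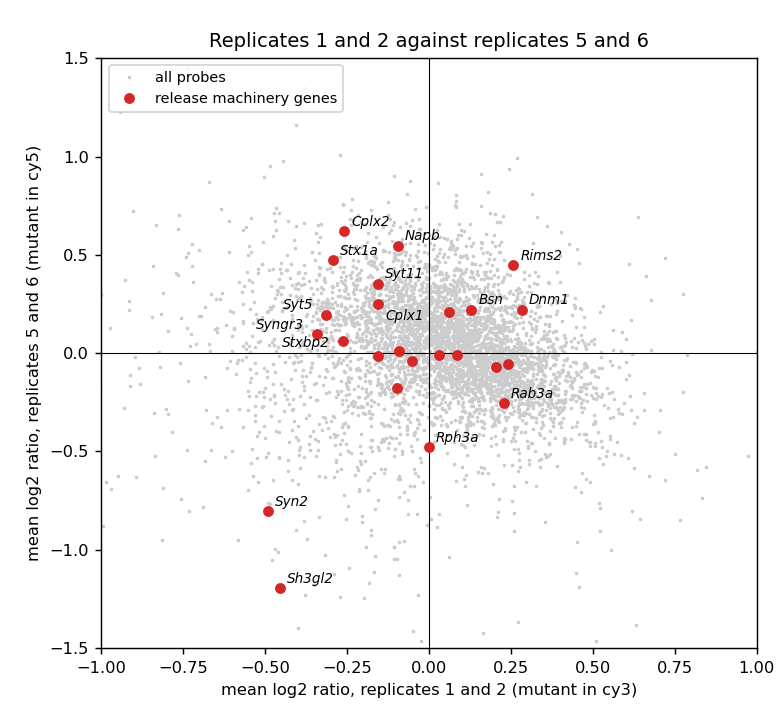
Mean log2 ratio on replicates 5 and 6 (mutant in cy5) against the mean on replicates 1 and 2 (mutant in cy3), with all probes in grey and the release machinery genes in red, labelled where they lie away from the centre. The upper left quadrant holds a group around Stx1a, Cplx2 and Napb, and the lower left holds Sh3gl2 and Syn2; 88 of 4728 probes lie outside the plotted range.

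Without replicates 3 and 4, the arrays with opposite dyes split the members into those that kept their sign and those that changed it. Stx1a, Cplx1, Cplx2, Napb, Syt5, Syt11, Stxbp2 and Syngr3, 8 of 24 members, lay below 0 on replicates 1 and 2 and above 0 on replicates 5 and 6, against 12.6% of all probes with these values. The reverse held for 1 member, Rab3a, against 16.9% of the probes. This pattern was chosen after the values were seen and has no test of its own. The gap between the pairs of arrays was largest for Cplx2, at 0.88, and for Stx1a, at 0.77.

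The meaning of this pattern depends on the direction of the ratio. Read as deposited, each of these 8 genes has opposite signs between the dyes, and the estimates on these 4 arrays ran from -0.12 for Syngr3 to 0.18 for Cplx2 and 0.23 for Napb. With replicates 1 and 2 turned and replicates 3 and 4 left out, they lie above 0 on all 4 arrays. Their choice by sign fixed this in advance. Estimates under that reading ran from 0.16 for Stxbp2 to 0.44 for Cplx2, with Stx1a at 0.38. A total of 9 of 24 members then had an unadjusted p under 0.05, against 23.4% of all probes, and 0 passed after adjustment. Of these 9, Cplx1, Cplx2, Syngr3, Stx1a, Syt5, Syt11 and Napb lay above 0, and Rab3a at -0.24 and Sh3gl2 at -0.37 below. All but Sh3gl2 were picked for their signs, so the count does not test the pattern. As deposited, 3 of 24 members, Sh3gl2, Syn2 and Rims2, had an unadjusted p under 0.05 on these 4 arrays, against 13.6% of all probes. A difference between mutants and a difference between dyes cannot be told apart in these values, because each mutant was hybridised in 1 dye only. This holds whichever direction the ratios have. Xist divides the same arrays, at 0.61 and 0.71 on replicates 1 and 2 and at -3.17 and -2.58 on replicates 5 and 6, and the part of the embryos' sex in the pattern was not tested.

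Other genes of the pathway were followed in 4 lists of 142 symbols, chosen with earlier results of these data known. Of 69 tested genes 27 lay above 0 and 42 below, with a median of -0.08, and 0 passed. Of all probes 43.3% lay above 0. Without replicates 3 and 4 the split turned, with 46 of 65 genes above 0 and a median of 0.066. The median of all tested probes also turned, from -0.033 to 0.044, so the turn of the median is not particular to these genes. The share of all probes above 0 without these arrays is not given, so 46 of 65 is not read as an excess. The other SNARE and Sec1 family genes had 7 of 21 above 0, the other vesicle and transporter genes 8 of 18, the other active zone genes 6 of 12 and the other endocytosis genes 6 of 18. On replicate 3 the medians of these lists ran from -0.60 to -0.35. The genes with the smallest unadjusted p on the positive side were Nrxn3, a presynaptic adhesion receptor, at 0.31 ± 0.16 (SE, n = 6), and Stx4a, a plasma membrane syntaxin found in most cells, at 0.30 ± 0.19 (SE, n = 6). On the negative side they were Snap91, the clathrin adaptor AP180, at -0.26 ± 0.17 (SE, n = 6), and Sh3gl3, an endophilin related to Sh3gl2, at -0.18 ± 0.12 (SE, n = 6). Each had a limma adjusted p of 0.921.

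The endophilins did not share a pattern. Sh3gl3 lay at -0.35, -0.36, -0.26, -0.33, 0.059 and 0.18, above 0 on replicates 5 and 6, where Sh3gl2 was lowest. Snap91 lay at -0.68, -0.72, -0.95, -0.27, 0.10 and 0.95, and was also above 0 on replicates 5 and 6 and below 0 on the other 4 arrays.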

How the data were processed

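The authors deposited 1 table of log ratios for 6856 probes on 6 arrays. Values are taken as log2, a base that the deposited table does not state, and a natural logarithm would change every size by a constant factor. How the arrays were scanned, corrected for background and normalized is not given in the sources used here. Probes were named from the platform annotation: 6269 had 1 symbol, 6 several and 581 none. Probes with several symbols were not used. The targeted gene is not reported here.

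A probe needed 2 values or more per dye orientation, which left 4958 probes. They were fitted in R 4.3.3 with limma 3.58.1 (lmFit, eBayes). The intercept, the mean of both orientations, estimates the mutant effect, with orientation as a term. Tests were two-sided, with Benjamini-Hochberg adjustment over all probes and a threshold of 0.05. The fit was checked on simulated data. Of 33 member probes 24 were fitted (72.7%, against 72.3% of all probes), 6 of them without replicate 3, and 3 had no value.

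Members and lists were chosen with earlier results of these data known. Each fitted member is named. Values on every array are given for the 6 members with the smallest p on each side, and for Stx1a, Snap25, Vamp2, Syt1, Syp, Stxbp2 and Stxbp3. Those of Vamp1, Cplx1, Syt11 and Rph3a were added after they were seen, as were those of Snap91 and of Sh3gl3, the second endophilin. Of the other pathway genes, the 2 with the smallest p on each side are named. The labels call the mutants biological replicates.

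Alternatives were turned signs, no dye term, median centring with and without scaling, array weights, averaging per gene, complete probes, an adjusted p of 0.1 and leaving out arrays. Turning replicates 1 and 2 while leaving out replicates 3 and 4 was chosen after seeing the data.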

Additional observations from a re-analysis of the deposited data

Results flagged for a closer look

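For 4 of 24 members with at least 4 values, 1 array was flagged as far from the others. Its gap to the nearest array made up 0.67 to 0.85 of the whole range. Chance gives such a gap in about 1 of 20 groups if all arrays have the same spread, which these did not. The share of all probes with such a gap is not given, so 4 of 24 is not read as an excess. Smaller gaps, such as that of Syn2 on replicate 4, were not flagged. In all 4 flagged members the array was replicate 3, the one with the largest standard deviation. The value there was -1.14 for Cplx1, -1.27 for Nsf, -1.45 for Vamp1 and 0.67 for Vamp2, so 3 of these lay low and 1 high. The Vamp1 value is that of 1 of its 2 probes, and the other read 3.09 on the same array.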

How the results depend on the processing

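Among the alternatives run, 0 members passed in any, including an adjusted p of 0.1. Over all probes, 2 passed with array weights and 1 passed when leaving out replicates 3 and 4, and 0 in each other alternative. Only Napb, Rab3a, Sh3gl2 and Syp kept their sign in every alternative in which they could be fitted. The signs of the others turned as follows. With replicates 1 to 3 turned, Rims2 stood at -0.050, Rph3a -0.078, Dnm1 -0.040, Cplx1 0.30, Nsf 0.20, Syt1 -0.12, Vamp2 -0.058, Slc32a1 -0.11, Snap25 0.062, Stxbp2 0.16, Stxbp3 0.080, Syn2 0.13, Stx1a 0.25, Syt5 0.19, Syt11 0.36 and Vamp1 0.28. With replicates 1 and 2 turned and replicates 3 and 4 left out, the members' median moved from -0.091 to 0.048, with Rph3a at -0.24, Dnm1 -0.031, Cplx1 0.20, Nsf 0.0050, Syt1 -0.14, Stxbp2 0.16, Syngr3 0.22, Stx1a 0.38, Syt5 0.25, Syt11 0.25 and Vamp1 0.073. Leaving out replicates 3 and 4 alone gave Rph3a -0.24, Cplx1 0.048, Vamp2 -0.085, Slc32a1 -0.041, Snap25 0.011, Stxbp3 0.038, Syn1 0.092, Stx1a 0.089, Syt11 0.098 and Vamp1 0.14. Array weights, which were 0.10 and 0.31 on replicates 3 and 4 and at least 1.40 on the others, gave Rph3a -0.15, Cplx1 0.025, Vamp2 -0.082, Syn1 0.057, Stx1a 0.059, Syt11 0.076 and Vamp1 0.079. Scaled arrays gave Rph3a -0.0012, Vamp2 -0.022, Syt11 0.033 and Vamp1 0.017, median centring gave Syngr3 0.035, no dye term gave Stx1a 0.0042, and averaging per gene gave Vamp1 0.22, since its second probe enters. Without 1 replicate in turn, the range was -0.13 to 0.33 for Rph3a, -0.032 to 0.14 for Bsn, -0.074 to 0.14 for Vamp2, -0.022 to 0.27 for Cplx2, -0.20 to 0.12 for Syngr3, -0.18 to 0.020 for Syn1, -0.18 to 0.060 for Syt11, -0.29 to 0.093 for Vamp1 and -0.12 to 0.089 for Stx1a. Apart from the arrays or probes that each alternative leaves out or turns, the cause of these shifts was not tested. No paired analysis was possible because the only control is 1 pool. Signal over background is not known for these values, so dim probes were not removed, and 6 arrays limit the precision.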
